A study of Rattus norvegicus with 18 samples.

Results

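The genes described here encode enzymes that write or erase histone methylation outside H3K9, histone acetylation, and DNA methylation. They were chosen by gene name, from a list of 41 polycomb, H3K4, H3K36, H3K79, acetyltransferase, deacetylase and DNA methylation enzyme genes. Of these, 38 had a row among the 28909 rows of the deposited expression table. EP300, KAT2B and KMT2C are not analysed here. A row under a RefSeq synonym of KAT2B fell outside the name rule and stood at 17.5, 29.0 and 20.3 CPM with DMSO and 23.8, 28.3 and 26.2 CPM with blebbistatin. Gene names are given in capitals, as the table writes them.

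The cells were ventricular cardiomyocytes of 1-day-old wild-type (wt) rats of the SD strain, kept in medium with little serum. One group of 3 cultures received blebbistatin, an inhibitor of the myosin II motor ATPase, for 0.5 h, and the other group of 3 received DMSO, its solvent. The dose was 25 µM per the treatment protocol of the samples; 0.25 µM stands in one sentence of the series' description. The question was which transcripts change when myosin II is inhibited briefly, in a study on the cytoskeleton and histone modification. The labels do not say that libraries of 1 group were prepared from different isolations of cells, so the p-values measure the spread between these libraries, which may be technical. H3K9me3 chromatin profiles of the same series are not analysed here.

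Histone tails carry methyl and acetyl groups that affect how accessible a gene is. Polycomb repressive complex 2 places the repressive H3K27 methyl mark, KMT2 enzymes place H3K4 methylation at promoters and enhancers, and SETD2 and NSD1 methylate H3K36 in transcribed and intergenic chromatin. Acetyltransferases open chromatin and deacetylases (HDACs) reverse this. In cardiac muscle the class IIa HDACs bind MEF2 transcription factors and shuttle out of the nucleus when phosphorylated, and SMYD1 is a methyltransferase of striated muscle. DNMT enzymes methylate cytosine in DNA, and TET enzymes oxidise that methyl group.

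Expression is in CPM, read counts scaled to one fixed total in every library. The steps between values correspond to 59.6 to 63.3 M reads per library, so that 3 reads, a limit that covers counting error only, equal 0.0474 to 0.0503 CPM. CPM values are not divided by transcript length, so they are compared between libraries and not between genes. DMSO replicate 1 stood apart. The first principal component held 42% of the variance and placed this library at -77.4, against -3.04 to 34.6 for the other 5. The 10 cardiomyocyte markers were detected in every library, with a summed level of 23103 to 28161 CPM, to which MYH7 added the largest share. In DMSO replicate 1, 4 of these 10 had their highest and 6 their lowest level. NPPA was at 495 CPM against 2785 to 5326 CPM, MYL2 at 27.2 CPM against 56.9 to 105 CPM and MYH7 at 19644 CPM against 11154 to 13105 CPM, and the median deviation of the list in that library from the mean of the other 5 was -0.49 on the log2 scale. The 8 fibroblast markers were also detected (33468 to 38944 CPM), although the cells were plated once to let faster-attaching cells settle out. That library held the highest level of 2 and the lowest of 3 of them. The 5 smooth muscle and pericyte markers summed to 1754 CPM in DMSO replicate 1 and 1038 to 1203 CPM in the others, with PDGFRB, CSPG4 and MYH11 highest there, CNN1 lowest (122 CPM against 217 to 266 CPM) and RGS5 within the range of the others. Of the 4 proliferation markers, MKI67 (439 CPM against 166 to 242 CPM) and TOP2A were highest in DMSO replicate 1, and CDK1 (32.2 CPM against 62.2 to 82.2 CPM) and CCNB1 were lowest there. The 6 measured macrophage and leukocyte markers summed to 67.5 CPM in DMSO replicate 1 and 128 to 147 CPM in the others. Of these, 0 were highest and 5 lowest in DMSO replicate 1. The 4 measured red blood cell genes, of which HBE1 was listed at 0 throughout, summed to 72.0 CPM in DMSO replicate 1 and 26.3 to 31.1 CPM in the others. DMSO replicate 1 was the highest library for 2 and the lowest for 0 of the 4. The 6 measured endothelial markers summed to 111 CPM in DMSO replicate 1 and 84.2 to 98.4 CPM in the others. Among them, 2 were highest and 1 lowest in that library. Markers of the same list thus lay on both sides in DMSO replicate 1, among the cardiomyocyte, smooth muscle and pericyte, and proliferation markers. In bulk RNA, changes in cell number, changes in RNA per cell and technical differences between libraries cannot be told apart. No marker gene was called, and the part of these differences between libraries in the results was not tested.

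No enzyme gene passed the test after blebbistatin. Of the 38 genes, 37 had enough reads to be tested; limma called 0 of them at an adjusted p under 0.05, where 0.0197% of the 15204 genes tested were called. None was at an unadjusted p under 0.05 either (0 of 37, against 1.52% of all genes tested). For 1 of 37, TET2, each treated library was lower than each control, and for none was it higher. Over all genes tested, the groups did not overlap for 6.13% in either direction and for 2.89% in the lower direction, so 1 of 37 is near the background. Limma adjusted p-values of the 37 genes ran from 0.991 to 0.999.

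Most of the small differences pointed downward, and this direction rested on DMSO replicate 1. Of the 37 genes, 12 lay above and 25 below a log2 fold change of 0, and the median was -0.12. Over all genes tested 49.3% were negative and the median was 0.0040. Without DMSO replicate 1, 13 were negative and 24 positive, the median was 0.043, and 16 of 37 genes had the opposite sign. Without that library 0 of 37 were at an unadjusted p under 0.05 in limma (1.55% of 15012 genes), and TET2 was the 1 gene without overlap (12.1% of all genes). Groups that do not overlap with all libraries stay apart when a control is left out, apart from rescaling. For TET2 this outcome was therefore given in advance, and no other enzyme gene joined it. The enzyme genes as a group were high in DMSO replicate 1. In 23 of 37 (62.2%) the highest level of the 6 libraries was in that library, which held the highest level for 33.7% of all genes tested. In 6 of 37 (16.2%) it held the lowest level, against 35.3% of all genes. The trait was not particular to the enzymes: of 144 partner genes described below, 72 were highest and 31 lowest in that library.

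**Figure D1:**
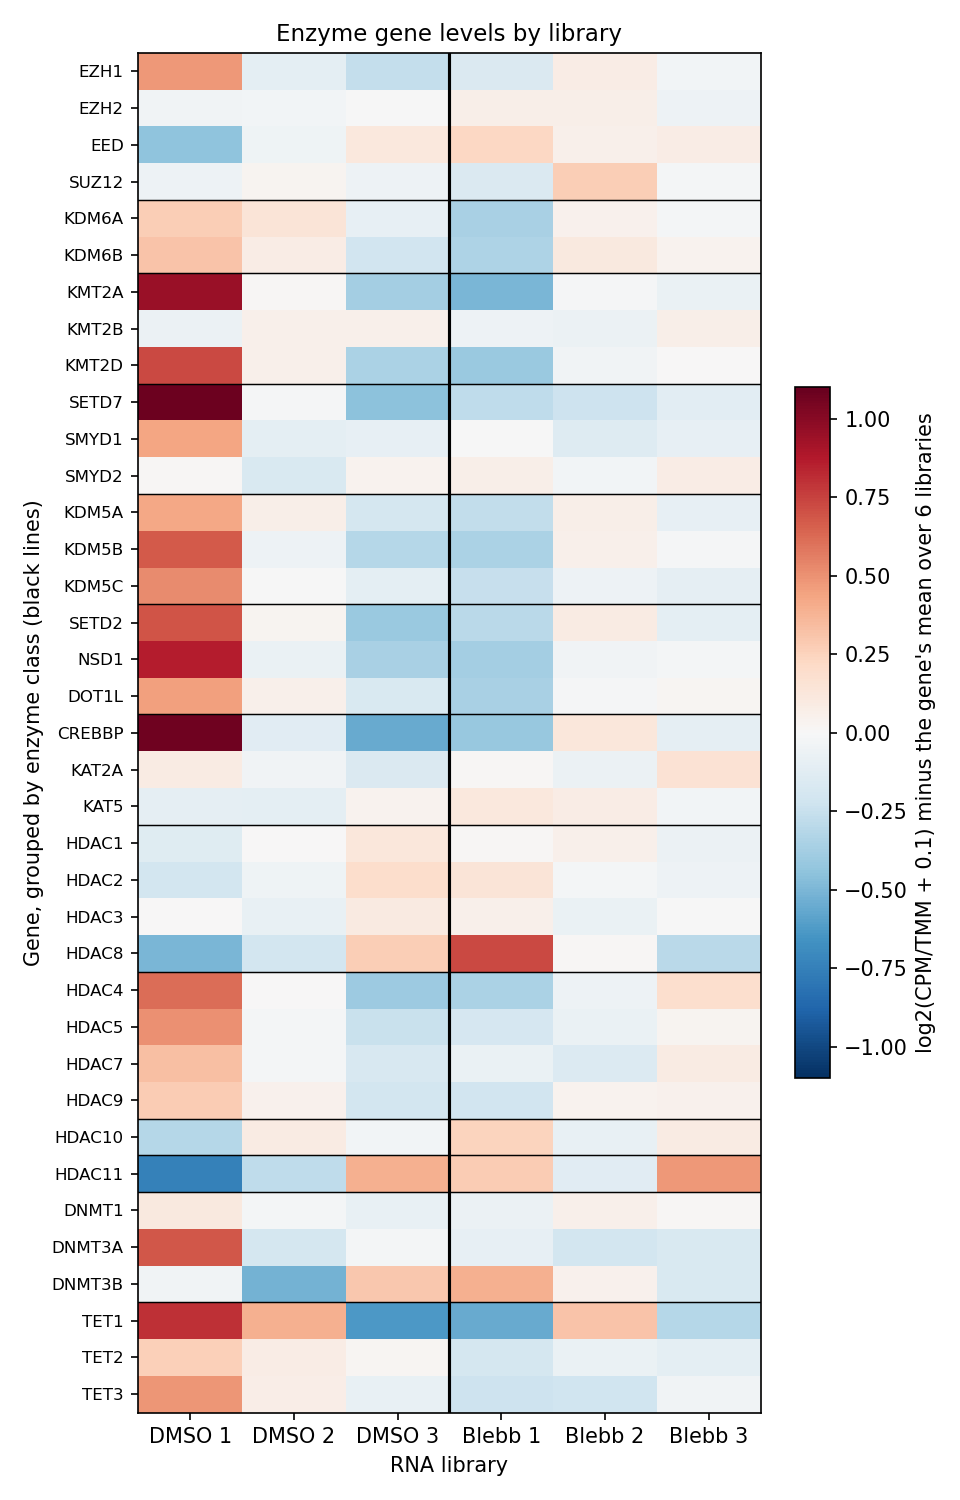
Level of 37 enzyme genes (rows, grouped by enzyme class) in each RNA library (columns), as the difference of log2(CPM/TMM factor + 0.1) from the gene's mean over 6 libraries; red is higher and blue lower. DMSO replicate 1 is the highest library for 23 of the 37 genes, among them KMT2A, SETD7, NSD1 and CREBBP, and the lowest for 6, among them HDAC11 and EED; HDAC6 is not drawn.

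By library, the median deviation of the 37 genes from their own means was 0.31, -0.022 and -0.091 on the log2 scale in DMSO replicates 1, 2 and 3. It was -0.16, -0.016 and -0.025 in the blebbistatin libraries. The 2 groups overlapped, with DMSO replicate 3 below blebbistatin replicates 2 and 3. The median SD between the DMSO libraries was 0.31 on the log2 scale, against 0.12 between the blebbistatin libraries, and the SD was larger with DMSO for 32 of 37 genes (10673 of 15204 over all genes). The control value was 0.15 without DMSO replicate 1. Over all genes the median SD was 0.30 with DMSO, 0.16 without that library and 0.19 with blebbistatin.

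Among the polycomb genes, EZH2, the main catalytic subunit in dividing cells, was close to level in the 6 libraries. It was at 34.6, 37.8 and 39.0 CPM in DMSO replicates 1 to 3 and at 41.2, 39.9 and 37.3 CPM in blebbistatin replicates 1 to 3. The 2 ranges overlapped, and the log2 fold change was 0.050 ± 0.11 (SE). EED, the subunit that reads the H3K27 mark, had the lowest p of the class (unadjusted p = 0.198 in limma). Its levels were 15.3, 22.1 and 25.0 CPM with DMSO and 27.2, 23.4 and 24.2 CPM with blebbistatin, a log2 fold change of 0.25 ± 0.17. DMSO replicate 1 was its lowest library and DMSO replicate 3 lay within the treated range, and without DMSO replicate 1 the value was 0.086 ± 0.13. EZH1, the catalytic paralogue of resting cells, went from -0.074 to 0.15 when that library was left out. EZH1 ran from 23.8 to 36.3 CPM and SUZ12, the scaffold subunit, from 35.9 to 48.2 CPM. The log2 fold change of SUZ12 was 0.056 ± 0.14.

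The H3K27 demethylase genes both had negative values. KDM6A, which is X-linked, was at 51.5, 51.6 and 44.2 CPM with DMSO and at 37.1, 47.5 and 46.1 CPM with blebbistatin, a log2 fold change of -0.22 ± 0.16 (-0.14 without DMSO replicate 1). Only blebbistatin replicate 1 lay clearly below the rest, and the groups overlapped. KDM6B, the family member that responds to inflammatory signals, was at 72.4, 67.1 and 55.5 CPM with DMSO and 51.1, 67.5 and 65.4 CPM with blebbistatin. The 2 groups overlapped, and the log2 fold change of -0.12 ± 0.18 became 0.0013 without DMSO replicate 1.

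The H3K4 methyltransferase genes KMT2A and KMT2D were highest in DMSO replicate 1, and KMT2B was not. KMT2A, which keeps developmental genes active, was at 169.8, 96.9 and 74.8 CPM with DMSO. With blebbistatin it was at 68.8, 93.4 and 91.3 CPM, inside the range of the other DMSO libraries for replicates 2 and 3 and below it for replicate 1. The log2 fold change was -0.40 ± 0.33 with all libraries (unadjusted p = 0.264 in limma) and -0.019 ± 0.18 without DMSO replicate 1. KMT2D, an enhancer methyltransferase, was at 330.3, 226 and 172 CPM with DMSO and 167, 209 and 218 CPM with blebbistatin, with a log2 fold change of -0.29 ± 0.27 and, without DMSO replicate 1, 0.00029. KMT2B stayed between 51.9 and 62.1 CPM in all 6 libraries (log2 fold change -0.038 ± 0.11, and -0.078 without DMSO replicate 1).

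The 3 H3K4 demethylase genes of the list, KDM5A, KDM5B and KDM5C, were all highest in DMSO replicate 1. KDM5C, also X-linked, had the lowest p of this class (unadjusted p = 0.178 in limma), with 182, 138 and 129.9 CPM in the controls and 118, 131 and 129 CPM in the treated libraries. Leaving out DMSO replicate 1 moved its log2 fold change from -0.27 ± 0.18 to -0.082 ± 0.11. KDM5A, the founding member of the family, ran from 81.3 to 119 CPM, and KDM5B, its paralogue, from 66.2 to 121 CPM. KDM5A and KDM5B had log2 fold changes of -0.20 ± 0.18 and -0.20 ± 0.26, which became -0.035 and 0.086.

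SETD7, a SET domain methyltransferase first described on H3K4 that also acts on non-histone proteins, had the most negative log2 fold change of the 37 genes. It was at 63.5, 32.3 and 24.2 CPM with DMSO and at 27.4, 27.5 and 30.2 CPM with blebbistatin. The first control library lay above the other 5, which ran from 24.2 to 32.3 CPM. The log2 fold change was -0.41 ± 0.35 with all libraries and 0.026 ± 0.16 without DMSO replicate 1. SMYD1, the striated muscle methyltransferase needed for heart development, was at 127, 95.1 and 97.2 CPM with DMSO and 104, 91.4 and 96.4 CPM with blebbistatin. This gave a log2 fold change of -0.16 ± 0.17, and 0.021 without that library. SMYD2, a related lysine methyltransferase, ran from 103 to 124 CPM, with a log2 fold change of 0.078 ± 0.12 and groups that overlapped.

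Genes of H3K36 and H3K79 methylation were likewise highest in DMSO replicate 1. DOT1L, the H3K79 methyltransferase, had the lowest p of the 3 (unadjusted p = 0.272 in limma). It was at 231, 192 and 166 CPM with DMSO and 147, 180.5 and 188 CPM with blebbistatin, a log2 fold change of -0.23 ± 0.19 (-0.061 ± 0.15 without DMSO replicate 1). NSD1, which places H3K36 dimethylation, was at 384, 218 and 180.4 CPM with DMSO and 181, 219 and 226 CPM with blebbistatin. SETD2, which places H3K36 trimethylation, was at 256, 177 and 132 CPM with DMSO and 143, 181 and 161 CPM with blebbistatin. For each of these genes DMSO replicate 1 was the highest library, and the other DMSO libraries overlapped the treated ones. The log2 fold changes of NSD1 and SETD2 were -0.29 ± 0.30 and -0.21 ± 0.27, and without DMSO replicate 1 they were 0.071 and 0.081.

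**Figure D2:**
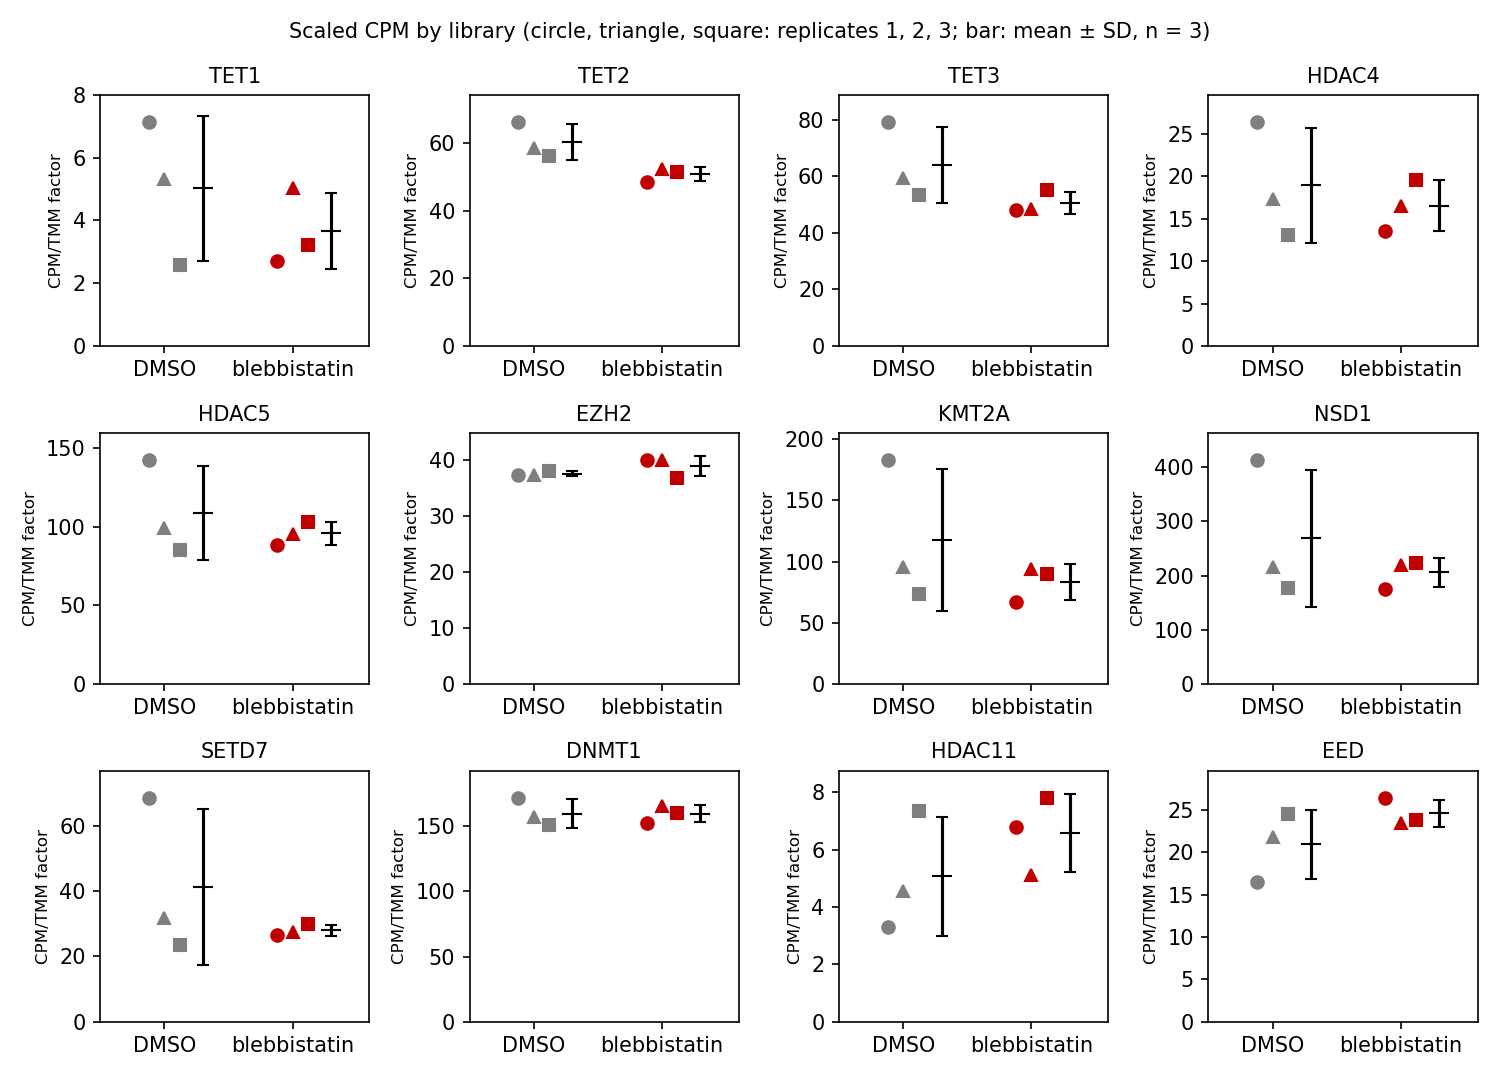
Scaled CPM (CPM divided by the TMM factor, linear axes from 0) of 12 enzyme genes in the DMSO (grey) and blebbistatin (red) libraries, with the mean ± SD of 3 libraries in black. The control circle, replicate 1, lies far above the other points for SETD7, KMT2A and NSD1 and below them for HDAC11 and EED; TET2 is the one panel in which the groups do not overlap.

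CREBBP, the measured paralogue of the pair of general coactivator acetyltransferases, was at 163, 77.2 and 57.8 CPM with DMSO and 64.0, 90.5 and 78.8 CPM with blebbistatin. The first and the third control library bracketed all treated values. Its log2 fold change was -0.26 ± 0.39, and 0.21 ± 0.19 without DMSO replicate 1. KAT5, the catalytic subunit of the TIP60 complex, had the lowest p of the acetyltransferases (unadjusted p = 0.414 in limma), with 23.3, 25.3 and 28.2 CPM with DMSO and 30.0, 28.3 and 26.6 CPM with blebbistatin. KAT2A, the catalytic subunit of SAGA, ran from 34.6 to 43.0 CPM. KAT5 and KAT2A had log2 fold changes of 0.11 ± 0.12 and 0.078 ± 0.13. Set against the mean of the remaining 5 libraries, DMSO replicate 1 was at 1.29 in CREBBP, 0.11 in KAT2A and -0.12 in KAT5 on the log2 scale, so the acetyltransferase genes did not move together there.

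Of the class I deacetylases, nuclear catalytic subunits of the SIN3, NuRD and NCoR corepressor complexes, HDAC1, HDAC2 and HDAC3 differed little between the groups. HDAC8 varied more between libraries of the same group. HDAC1 ran from 78.4 to 103 CPM over the 6 libraries, HDAC2 from 95.3 to 138 CPM and HDAC3 from 36.8 to 43.3 CPM. HDAC1, HDAC2 and HDAC3 had log2 fold changes of 0.0048 ± 0.12, 0.038 ± 0.14 and -0.014 ± 0.12, and -0.063, -0.056 and -0.014 without DMSO replicate 1. HDAC8, the member that works outside these complexes, was at 4.68, 6.34 and 8.89 CPM with DMSO and 12.3, 7.23 and 5.92 CPM with blebbistatin, with a log2 fold change of 0.29 ± 0.32. The groups of HDAC8 overlapped, with blebbistatin replicate 1 as its highest library. That library set the sign of the value, which was -0.0019 without it. Unlike KMT2A and KMT2D, HDAC1, HDAC2 and HDAC8 had their lowest level in DMSO replicate 1.

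The class IIa deacetylases HDAC4, HDAC5, HDAC7 and HDAC9 all had a negative value with 6 libraries and a positive one without DMSO replicate 1. HDAC5, with the lowest p of the class (unadjusted p = 0.464 in limma), was at 132, 100.4 and 87.1 CPM in the controls and 91.2, 95.4 and 105 CPM in the treated libraries. Its log2 fold change was -0.15 ± 0.20, and 0.057 ± 0.12 without that library. HDAC4 was at 24.5, 17.5 and 13.3 CPM with DMSO and 13.9, 16.5 and 19.9 CPM with blebbistatin. DMSO replicate 1 was its highest library and DMSO replicate 3 its lowest, with all treated libraries between them. HDAC7 ran from 69.9 to 90.6 CPM. HDAC9, a repressor of MEF2, was at 5.74, 5.30 and 4.50 CPM with DMSO and 4.51, 5.19 and 5.34 CPM with blebbistatin. The log2 fold changes of HDAC4, HDAC7 and HDAC9 were -0.15 ± 0.27, -0.087 ± 0.16 and -0.082 ± 0.20, and without DMSO replicate 1 they were 0.12, 0.057 and 0.038. HDAC7 is also expressed in endothelial cells, whose 6 measured markers had a median log2 fold change of -0.21 (-0.0092 without that library); their part in the HDAC7 value was not tested.

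HDAC6, the cytoplasmic tubulin deacetylase of class IIb, did not pass the filter on low values. It was listed at 0 in DMSO replicates 1 and 3 and in blebbistatin replicates 1 and 3. The second replicates held 1.73 CPM (DMSO) and 1.49 CPM (blebbistatin). For 106 genes of the table, a level of at least 5 CPM in one library stands beside a listed 0 in another, so a listed 0 is not read as a lack of transcript. HDAC10, the polyamine deacetylase, was at 5.85, 8.50 and 7.89 CPM with DMSO and 9.60, 7.41 and 8.51 CPM with blebbistatin (log2 fold change 0.17 ± 0.19, and 0.052 without DMSO replicate 1). HDAC11, the single class IV enzyme, had the most positive log2 fold change of the 37 genes, 0.42 ± 0.32 (unadjusted p = 0.225 in limma). Its levels were 3.06, 4.63 and 7.52 CPM with DMSO and 7.0, 5.09 and 7.91 CPM with blebbistatin. DMSO replicate 1 was the lowest library and DMSO replicate 3 lay within the treated range, and without DMSO replicate 1 the value was 0.16 ± 0.27.

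DNMT1, which copies DNA methylation at replication, was at 159, 159 and 154 CPM with DMSO and 157, 165 and 162 CPM with blebbistatin. The scaled group means were 159 ± 10.8 and 159 ± 6.52 CPM (SD, n = 3 each), and the 95% interval of the log2 fold change ran from -0.28 to 0.27. DNMT3A, a de novo methyltransferase, had the lowest p of the class (unadjusted p = 0.21 in limma), with 69.5, 41.4 and 46.9 CPM in the controls and 45.1, 40.5 and 42.2 CPM in the treated libraries. The first control library was the high one, and the log2 fold change of -0.31 ± 0.22 became -0.045 ± 0.12 without it. DNMT3B, the other de novo enzyme, ran from 2.36 to 4.61 CPM, with 0.18 ± 0.28.

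The TET dioxygenase genes were the one class of more than 1 gene in which every member kept a negative value with and without DMSO replicate 1, and none of the 3 passed the test. The fits with and without DMSO replicate 1 share all other libraries, so their signs are not independent. The value of TET1 without that library was smaller than its SE. TET2 was at 61.5, 59.3 and 57.5 CPM with DMSO and 49.9, 52.3 and 52.2 CPM with blebbistatin, with every treated library below every control. Its scaled means were 60.4 ± 5.28 and 50.8 ± 2.08 CPM (SD, n = 3 each), a log2 fold change of -0.25 ± 0.12 (95% interval -0.53 to 0.037; limma unadjusted p = 0.0793 and adjusted p = 0.991). Without DMSO replicate 1 the value was -0.18 ± 0.11. TET3, which has its main known role in the zygote and in neurons, was at 73.6, 60.2 and 54.5 CPM with DMSO and 49.7, 48.4 and 55.8 CPM with blebbistatin, with DMSO replicate 3 inside the treated range. The log2 fold change of TET3 was -0.32 ± 0.17 (limma unadjusted p = 0.0988 and adjusted p = 0.991), and -0.16 ± 0.12 without DMSO replicate 1. TET1 was at 6.63, 5.40 and 2.64 CPM with DMSO and 2.80, 5.03 and 3.28 CPM with blebbistatin, with -0.38 ± 0.41 and, without that library, -0.069 ± 0.37.

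The promoter of TET2 is shown because TET2 was the 1 gene whose groups did not overlap. The sequence holds the 250 bases before the RefSeq start at chr2:224746187-224746436 (minus strand, GRCr8, an assembly newer than the rn6 build that the submitters name). Capitals mark the CREB core TGACG or CGTCA, searched on both strands.

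TET2: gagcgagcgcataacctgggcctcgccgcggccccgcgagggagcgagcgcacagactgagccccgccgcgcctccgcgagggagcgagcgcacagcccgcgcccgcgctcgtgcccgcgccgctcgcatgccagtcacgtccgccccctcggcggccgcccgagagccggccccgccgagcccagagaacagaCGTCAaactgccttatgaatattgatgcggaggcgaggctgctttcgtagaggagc

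This window held 1 CREB core and 0 matches to the NFAT core GGAAA or TTTCC. NFAT factors are named in the series title, and CREB factors answer to cAMP and calcium. The TET2 window held 38 CpG pairs, against a median of 5 in the same 250 bases over 33469 RefSeq starts and of 16 over the starts of the enzyme genes. A start with its sequence was at hand for 30 of the 38 enzyme genes. Their 35 starts held an NFAT core in 16 (45.7%, against 56.9% of all starts) and a CREB core in 13 (37.1%, against 18.2%). The median GC content was 62.0% in the enzyme genes' starts and 51.2% in all starts, and a match of 5 letters is a description of the sequence only.

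**Figure D3:**
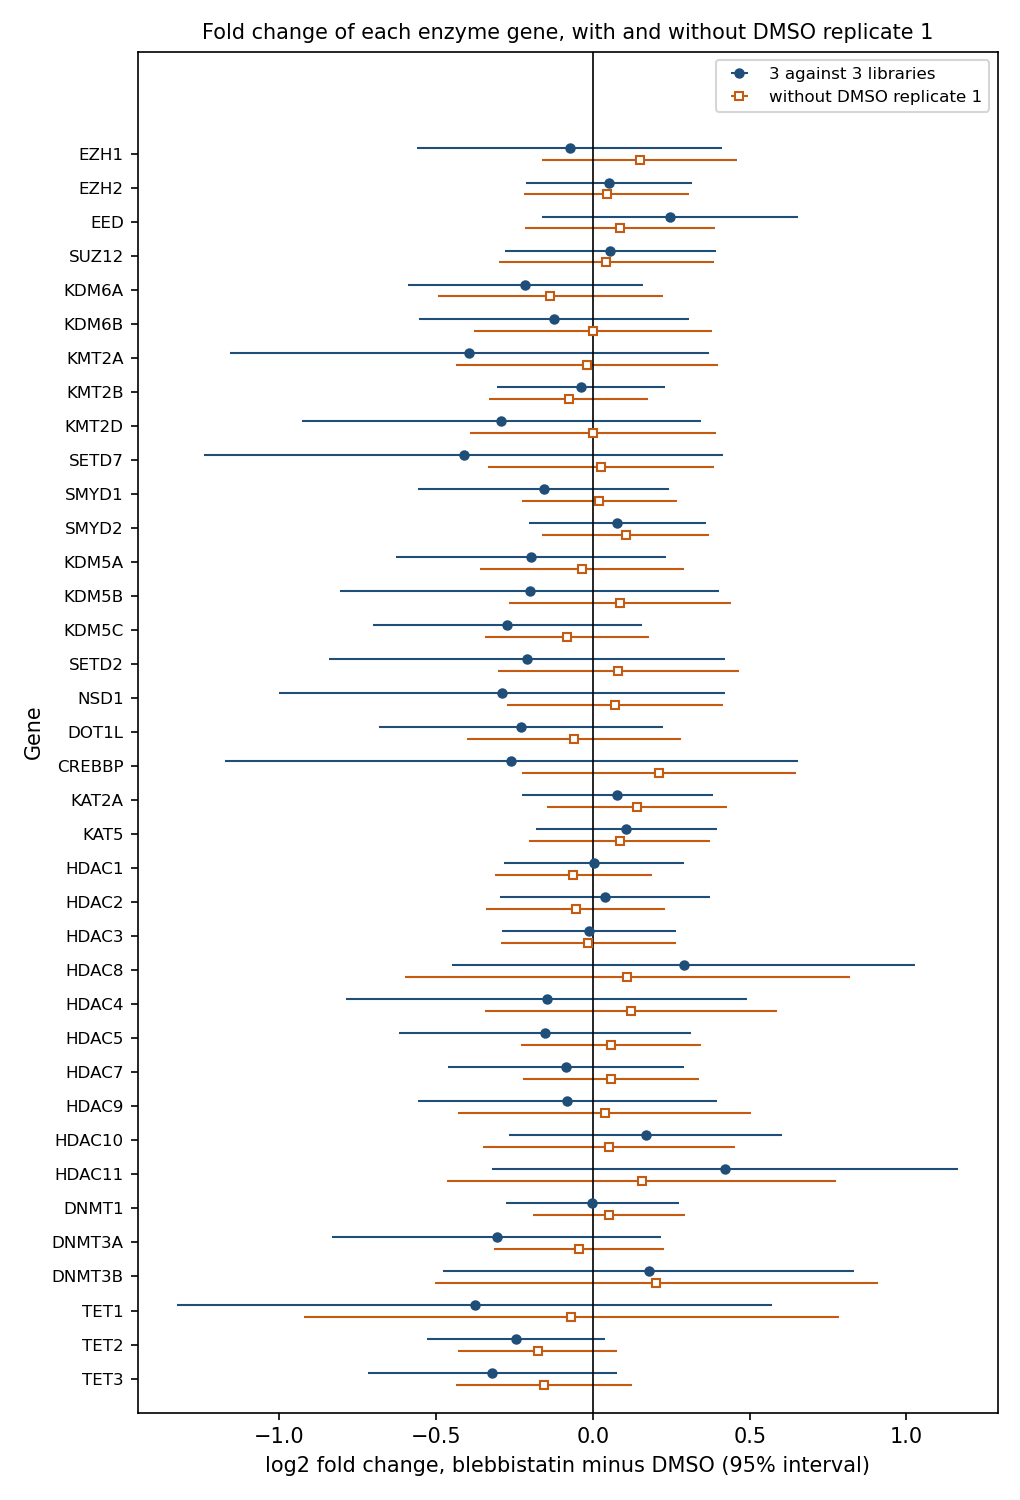
Log2 fold change (blebbistatin minus DMSO) of 37 enzyme genes with its 95% limma interval, from all 6 libraries (filled circles) and without DMSO replicate 1 (open squares). All intervals include 0 in both fits. Without DMSO replicate 1, 33 of 37 are narrower, and all 37 lie within 1 log2 unit of 0. That library was left out because it stood apart in these data, so narrower intervals follow in part from the choice.

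The 95% intervals describe each gene singly and rest on the spread between these libraries, which may be technical. They set no bound on the change in other cultures. With all 6 libraries the 95% interval lay within 1 log2 unit of 0, that is, under a 2-fold change in either direction, for 30 of 37 genes. The exceptions were KMT2A, SETD7, NSD1, CREBBP, HDAC8, HDAC11 and TET1. Within 0.5 log2 units lay 11 of 37. Without DMSO replicate 1 these numbers were 37 and 30 of 37. That library was left out because it stood apart in these data, so narrower intervals follow in part from the choice.

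The counts rose when DMSO replicate 3 was left out, among the enzyme genes and over all genes. Without it, DMSO replicates 1 and 2 were the controls, and 6 of 37 genes were at an unadjusted p under 0.05 (limma; 6.13% of all genes in that fit), with 0 at an adjusted p under 0.05. The log2 fold changes of KMT2A, KMT2D, SETD7, TET1, TET3 and HDAC11 were then -0.68, -0.54, -0.74, -0.78, -0.44 and 0.72. The groups then did not overlap for 12 of 37 genes, against 22.5% of all genes. EED, KAT5 and HDAC11 were higher, and KDM6A, KMT2A, KMT2D, SETD7, KDM5C, DOT1L, TET1, TET2 and TET3 were lower. The counts of 0 and 1 with all libraries thus became 6 and 12 without this library, and they stayed at 0 and 1 without DMSO replicate 1. Over all genes, the shares of 1.52% and 6.13% with all libraries became 6.13% and 22.5% without DMSO replicate 3.

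Partner genes of the enzymes were examined in 9 lists by function, which held 152 gene names, some of them alternative names of 1 gene. Of these names, 144 were tested. Limma called 0 of the 144, and 1 was at an unadjusted p under 0.05, in the higher direction, against 1.52% of all genes tested. This was CBX2, a chromodomain subunit of polycomb repressive complex 1. CBX2 was at 4.02, 6.37 and 7.16 CPM with DMSO and 9.27, 7.43 and 9.68 CPM with blebbistatin, without overlap, with a log2 fold change of 0.57 ± 0.23 (limma unadjusted p = 0.0387 and adjusted p = 0.991). Without DMSO replicate 1, its lowest library, the value was 0.37. The groups did not overlap for 7 of the 144, 5 higher and 2 lower, against 6.13% of all genes.

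The medians of these lists were 0.067 for 20 polycomb partners, -0.022 for 17 genes of COMPASS and other H3K4 enzymes, -0.15 for 11 H3K36 and H3K79 partners and 0.0098 for 8 arginine methyltransferases. They were -0.12 for 17 further acetyltransferase genes, -0.075 for 27 corepressor subunits, -0.042 for 21 class IIa HDAC partners and kinases, -0.079 for 12 bromodomain readers and -0.11 for 11 DNA methylation partners. Over all 144 the median was -0.047, with 93 negative and 51 positive values. Without DMSO replicate 1 it was 0.011, with 61 negative and 83 positive. As among the enzymes, the direction of the partner genes thus turned when that library was left out.

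The gene with the lowest p of each other list did not pass. NSD2, an H3K36 methyltransferase, was at 161, 109 and 97.8 CPM with DMSO and 98.1, 106 and 99.8 CPM with blebbistatin (-0.28 ± 0.22, and -0.025 without DMSO replicate 1). SIK2, a kinase that phosphorylates class IIa HDACs, was at 87.6, 68.0 and 56.2 CPM with DMSO and 52.8, 62.6 and 60.0 CPM with blebbistatin (-0.29 ± 0.21, and -0.079). For both, DMSO replicate 1 was the highest library. ING3, a subunit of the TIP60 complex, was at 14.4, 12.3 and 12.0 CPM with DMSO and 9.31, 10.9 and 11.4 CPM with blebbistatin, with the treated libraries below the controls (-0.33 ± 0.18, and -0.20). MTA3, a NuRD subunit, had the treated libraries above the controls in scaled CPM, with 0.18 ± 0.13, and 0.12 without DMSO replicate 1. RBBP5, PRMT5, BAZ1A and ZBTB4 had log2 fold changes of -0.20 ± 0.17, -0.18 ± 0.18, -0.21 ± 0.19 and -0.26 ± 0.17. With that library left out they were -0.026, 0.0031, -0.014 and -0.10.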

How the data were processed

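RNA of 6 libraries, 3 with DMSO and 3 with blebbistatin, was analysed, grouped by sample title. The table deposited by the authors holds CPM values for 28909 genes, 1 column per library, each with the same total. Per the submitters' processing notes, edgeR 3.20.9, StringTie 1.3.4, HISAT2 2.1.0 and the build rn6 were used; what each was used for is not given. Annotation and strand setting are not given in the sources used here, so the 20 of 38 genes that overlap another RefSeq gene are less certain.

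In each library 98.5 to 98.7% of the values under 1000 reads were whole multiples, within 0.02, of 1 step, taken as 1 read, so whole reads were not recovered for all genes. A gene was tested if 3 or more libraries reached 0.162 CPM, which is 10 reads in a library of median depth (61.7 M). TMM factors were computed without weights (trims of 0.3 and 0.05) and ran from 0.928 to 1.03. The test was limma 3.58.1 in R 4.3.3 (trend and robust settings, two-sided, no block) on log2(CPM divided by the TMM factor + 0.1), fitted to all 15204 genes with Benjamini-Hochberg adjustment over all of them. Adding 0.1 makes the fold changes of weakly expressed genes smaller than they are. Single-library values are CPM as deposited, and means ± SD are scaled.

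The genes and lists were chosen with earlier results of these data known. All enzyme genes are named. Library values are given for the gene with the lowest p in each class, those without overlap or listed at 0, and EZH2, SMYD1, HDAC4, HDAC5, HDAC9, DNMT1 and KDM6B; those of KMT2D, NSD1, SETD2, CREBBP, TET1 and TET3 were added after their values were seen. From each partner list the gene with the lowest p is named. The steps were tested on simulated data. No library repeats another: chi-square per degree of freedom was at least 35.7 in each pair. The closest pair crossed the groups, DMSO replicate 3 with blebbistatin replicate 1. Alternatives covered scaling, filter, pseudocount, the robust setting, the replicate block and leaving out each library.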

Additional observations from a re-analysis of the deposited data

How the results depend on the processing

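Under every alternative that was run, limma called 0 enzyme genes and 0 partner genes over all genes tested. Of the single enzyme genes' values under the alternatives, 561 kept their sign and 31 changed it, with 0 newly past the threshold. The 3 genes called over all genes became 0 when only genes above 0 in every library were kept, which drops genes by construction, with 216 at an unadjusted p under 0.05 in limma. Without a filter the 231 genes at an unadjusted p under 0.05 became 421. Library size alone gave 0.000614 for KMT2B, 0.0253 for HDAC3 and 0.0372 for DNMT1, and upper-quartile factors gave 0.00052 and 0.0124 for HDAC3 and DNMT1, all with the opposite sign. Scaling moved the enzyme genes' median between -0.127 and -0.0857. With each library left out in turn there were 128 to 918 genes and 0 to 6 enzyme genes at an unadjusted p under 0.05, 1 to 12 enzyme genes without overlap, 0 to 5 partner genes at an unadjusted p under 0.05 and an enzyme median of -0.24 to 0.043. With single libraries left out, the values whose sign turned spanned -0.223 to 0.149 for EZH1, -0.064 to 0.147 for SUZ12, -0.258 to 0.00998 for KDM6B, -0.537 to 0.000287 for KMT2D, -0.738 to 0.0261 for SETD7, -0.252 to 0.0205 for SMYD1, -0.409 to 0.0859 for KDM5B, -0.466 to 0.0809 for SETD2, -0.542 to 0.071 for NSD1 and -0.603 to 0.21 for CREBBP. Further such values spanned -0.0626 to 0.0681 for HDAC1, -0.0556 to 0.145 for HDAC2, -0.0602 to 0.0342 for HDAC3, -0.0019 to 0.513 for HDAC8, -0.383 to 0.122 for HDAC4, -0.313 to 0.0571 for HDAC5, -0.196 to 0.0573 for HDAC7, -0.201 to 0.0375 for HDAC9, -0.0416 to 0.0515 for DNMT1, -0.0394 to 0.37 for DNMT3B and -0.319 to 0.00309 for PRMT5. With the replicate block 0 enzyme genes and 2 genes over all were called, 0 enzyme genes and 178 genes over all were at an unadjusted p under 0.05, and the enzyme median was -0.125. Deviations of same-numbered libraries correlated at -0.289, 0.0542 and -0.092, so the numbers give no sign of pairing the samples. The planned count test on recovered reads was not run, because the values are not whole reads for all genes. For the other changes named here the cause was not tested.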
